A study of Danio rerio with 24 samples.

Results

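The levels of 10 genes from enzyme families that act on ethanol, acetaldehyde or acetate were read from bulk RNA of zebrafish livers. Not every one of the 10 enzymes is known to act on these compounds itself. The genes were taken by symbol from a count table of 19793 genes and were *adh5*, *adh8a*, *adh8b*, *cyp2y3*, *cyp2p6*, *aldh2.1*, *aldh2.2*, *aldh1a2*, *acss2* and *acss2l*. All 10 were in the table and passed the filter on low counts. The study compared the fatty liver of *mtm* larvae with that of larvae exposed to ethanol or given too much food. *mtm* larvae are homozygous for a loss-of-function mutation of *mtm1*, the gene of the phosphoinositide phosphatase myotubularin (6 libraries). EtOH larvae are of WT genotype and were kept in 2% ethanol for 32 hours (4 libraries). Overfed larvae are of WT genotype and received 6 times the usual amount of food between 5 and 7 days post fertilization (dpf; 4 libraries). WT larvae had the usual food and no ethanol (4 libraries). The labels and the study's methods give 7 dpf as the age at dissection, while its results text gives 5 dpf, and each library holds the RNA of 40 pooled livers, so a value is an average over larvae. The mutation and both treatments affected the whole larva, not the liver alone. The study gives its fish as AB strain.

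Ethanol is oxidised to acetaldehyde by cytosolic alcohol dehydrogenases, by microsomal cytochrome P450 enzymes and, to a smaller extent, by catalase. Mitochondrial aldehyde dehydrogenase 2 then converts acetaldehyde to acetate, and acetyl-CoA synthetases join acetate to coenzyme A, which makes it available for lipid synthesis or oxidation. Hepatocytes carry out most of this work in vertebrates, and both dehydrogenase steps produce NADH.

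The libraries held between 8919274 and 20582311 estimated counts. Levels are given as CPM, which are counts scaled to a fixed library size with TMM factors. The targeted gene *mtm1* was at 0.159 to 2.38 CPM in *mtm* livers and at 3.23 to 7.92 CPM in WT livers, with no overlap. Its log2 fold change of -1.83 ± 0.72 (SE) in *mtm* livers against WT did not pass the threshold (edgeR adjusted p = 0.0884). EtOH replicates 1 and 2, labelled as WT genotype, lay within the *mtm* range at 0.175 CPM (3 counts) and 2.23 CPM, below every WT library. Replicates R1, R2 and R3 of *mtm* are labelled as resubmitted, unlike replicates 1, 2 and 3. Whether they are pools of their own is not said in the labels, nor whether any replicates come from separate clutches, so the p-values measure the spread between these libraries. For *mtm* livers that spread, and the SD, may mix repeat libraries of a pool with separate pools. Hepatocyte markers (7 measured, none at 0) summed to 24449 to 118445 CPM in *mtm* livers, 56047 to 98395 CPM in EtOH livers, 154685 to 199075 CPM in overfed livers and 116368 to 218636 CPM in WT livers. The highest *mtm* sum, in replicate 1, lay within the WT range, while the other 5 *mtm* libraries were at or below 45740 CPM. *apoa2*, an apolipoprotein gene, is the largest single contributor to that sum, and it averaged 22350 CPM in *mtm* livers, 48289 CPM in EtOH livers and 126164 CPM in WT livers. The markers did not move as 1 block: *fabp10a*, the fatty acid binding protein of hepatocytes, had a log2 fold change of -0.04 ± 0.33 (SE) in *mtm* livers against WT, and *ttr* one of 0.91, neither past the edgeR test. For any gene, fewer cells of a type and less of its RNA per cell cannot be told apart in such samples.

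In *mtm* livers 8 of the 10 genes were lower than in WT livers, against 8.59% of all genes tested, among them *adh8a*, the zebrafish alcohol dehydrogenase with activity on ethanol, both *aldh2* genes and *acss2l*. In EtOH livers 3 of the 10, *adh8b*, *aldh2.2* and *acss2l*, were lower than in WT livers, against 2.7% of all genes tested. Without EtOH replicate 1 or replicate 2, the libraries low in *mtm1*, the count was 3 each time. Over all genes, 494 of 11692 and 594 of 11613 were then called in either direction. No gene of the 10 rose in either group against WT, where 10.1% of all genes in *mtm* livers and 4.66% in EtOH livers did. In overfed livers 0 of the 10 passed the test, and 0% of all genes did. *aldh1a2* and *acss2* were called in none of the 5 comparisons made with edgeR, though DESeq2 called *acss2* lower in EtOH than in overfed livers (adjusted p = 0.0484).

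**Figure D1:**
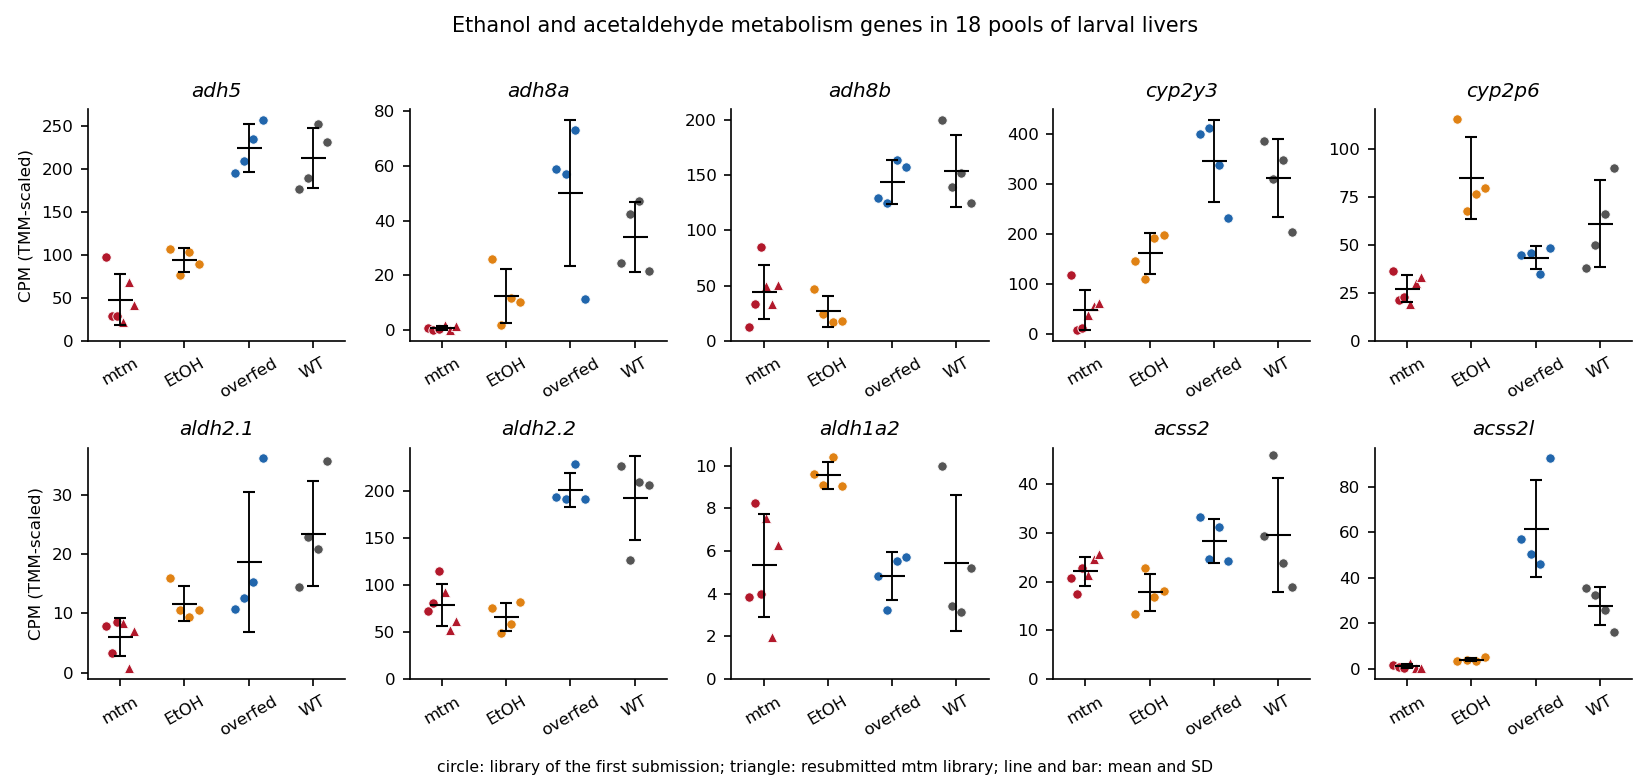
Level of each of the 10 genes (CPM after TMM scaling, linear axis) in every library of the 4 groups, with the group mean and SD as a line and bar. The *mtm* libraries (circles, first submission; triangles, resubmitted) sit below every WT library for 8 genes and overlap with WT for *aldh1a2* and *acss2*.

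The alcohol dehydrogenases come first in the pathway. *adh5* encodes the class III enzyme, which handles formaldehyde bound to glutathione and has little activity on ethanol. Its level in *mtm* livers had a lowest value of 21.7, a median of 35.0 and a highest value of 97.2 CPM. It was 106, 76.0, 103 and 88.9 CPM in EtOH livers, 194, 209, 235 and 257 CPM in overfed livers and 177, 189, 252 and 231 CPM in WT livers. All *mtm* and all EtOH libraries were below all overfed and WT libraries. The log2 fold change was -2.14 ± 0.36 (SE) in *mtm* livers against WT (edgeR quasi-likelihood test with Benjamini-Hochberg adjustment, adjusted p = 0.000488). In EtOH livers it was -1.19 ± 0.39 and just missed the threshold (edgeR adjusted p = 0.0743), although it passed with DESeq2 (adjusted p = 0.0263).

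*adh8a* encodes a zebrafish enzyme that oxidises ethanol. It had 0, 0, 6, 6, 24 and 26 counts in the 6 *mtm* libraries, which is 0 to 1.91 CPM with a median of 0.471 CPM. It was at 26.0, 1.95, 11.7 and 10.3 CPM in EtOH livers, 58.8, 57.1, 73.0 and 11.5 CPM in overfed livers and 24.4, 42.3, 47.2 and 21.5 CPM in WT livers. The *mtm* libraries were thus at the lower edge of detection, below every library of the other groups. The log2 fold change in *mtm* livers against WT was -6.23, with a 95% interval of -7.99 to -4.47 (edgeR adjusted p = 7.69e-05), a size that depends on the small number of reads in *mtm*. In EtOH livers the groups overlapped and the log2 fold change of -1.77 ± 0.80 did not pass (edgeR adjusted p = 0.211). EtOH replicate 2 and overfed replicate 4 each stood well below the other libraries of their group.

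*adh8b*, the adjacent paralog of *adh8a* with no protein-coding gene between them in the RefSeq annotation (GRCz12tu), encodes an enzyme reported to lack activity on ethanol. It ranged in *mtm* livers from 12.6 to 84.9 CPM with a median of 41.3 CPM. It was at 47.2, 24.6, 16.8 and 18.4 CPM in EtOH livers, 130, 124, 164 and 157 CPM in overfed livers and 200, 139, 152 and 125 CPM in WT livers. Every *mtm* and every EtOH library lay below every WT library. The log2 fold change was -1.91 ± 0.39 in *mtm* livers (edgeR adjusted p = 0.00239) and -2.52 ± 0.44 in EtOH livers (edgeR adjusted p = 0.00206), each against WT. Its mean was lowest in EtOH livers, unlike that of *adh5* and *adh8a*, which were lowest in *mtm* livers. For *adh8b* the difference of *mtm* from EtOH did not pass (log2 fold change 0.62, 95% interval -0.24 to 1.48, edgeR adjusted p = 0.386). Where reads match both *adh8a* and *adh8b*, the estimation of counts divides them, so the level of each is less certain than the sum. The size of this effect was not tested.

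Of the cytochrome P450 genes, *cyp2y3* is often used as the zebrafish counterpart of human CYP2E1, the microsomal ethanol oxidase. It ranged from 6.54 to 117 CPM in *mtm* livers with a median of 46.4 CPM. It was at 146, 109, 191 and 197 CPM in EtOH livers, 401, 412, 337 and 232 CPM in overfed livers and 385, 309, 348 and 203 CPM in WT livers. Both *mtm* and EtOH libraries lay below the lowest WT library. Against WT the log2 fold change was -2.86 ± 0.55 in *mtm* livers (edgeR adjusted p = 0.00141). In EtOH livers it was -0.90, with an interval of -2.15 to 0.34 that includes 0 (edgeR adjusted p = 0.424). The highest *mtm* value belonged to replicate 1, the library with the highest hepatocyte marker sum, and without it the log2 fold change of *cyp2y3* against WT was -3.23. In that replicate *adh5* (97.2 CPM) and *cyp2p6* (36.1 CPM) were also at their highest *mtm* value. None of the remaining genes of the set was, and *adh8b* was at its lowest *mtm* value there (12.6 CPM).

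*cyp2p6*, of a subfamily related to the mammalian CYP2J epoxygenases, followed another order. It ranged from 19.3 to 36.1 CPM in *mtm* livers with a median of 26.6 CPM. It was at 116, 67.4, 76.5 and 79.8 CPM in EtOH livers, 44.5, 45.7, 34.9 and 48.2 CPM in overfed livers and 38.1, 49.8, 66.1 and 90.0 CPM in WT livers. The EtOH libraries were the highest as a group, and all of them exceeded all overfed and all *mtm* libraries. *cyp2p6* was lower in *mtm* livers than in WT livers (log2 fold change -1.06 ± 0.27, edgeR adjusted p = 0.0106). That call was lost when only these 2 groups were fitted (adjusted p = 0.0789), without WT replicate 3 (0.0671) and with the resubmitted *mtm* libraries alone (0.0533). EtOH livers overlapped with WT livers (log2 fold change 0.51, interval -0.11 to 1.12, edgeR adjusted p = 0.350).

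At the acetaldehyde step, *aldh2.1* and *aldh2.2* are 2 copies of the gene of mitochondrial aldehyde dehydrogenase, next to each other in the same annotation. Reads of such similar copies can be divided between them by the estimation of counts, so the split is less certain than the sum. *aldh2.2* ranged from 52.4 to 115 CPM in *mtm* livers with a median of 76.6 CPM. It was at 75.2, 48.6, 58.5 and 82.0 CPM in EtOH livers, 194, 192, 229 and 192 CPM in overfed livers and 227, 127, 210 and 207 CPM in WT livers. All *mtm* and EtOH libraries were below all WT libraries, and the lowest WT value, in replicate 2, was close to the highest *mtm* value. Against WT the log2 fold change was -1.22 ± 0.22 in *mtm* livers (edgeR adjusted p = 0.00105) and -1.54 ± 0.25 in EtOH livers (edgeR adjusted p = 0.00104).

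*aldh2.1* was counted at a lower level. It ranged from 0.716 to 8.5 CPM in *mtm* livers with a median of 7.47 CPM. It was at 16, 10.6, 9.33 and 10.5 CPM in EtOH livers, 10.8, 12.5, 15.3 and 36.2 CPM in overfed livers and 14.4, 22.9, 20.9 and 35.7 CPM in WT livers. The *mtm* libraries were below all others, while EtOH replicate 1 lay above WT replicate 1. It was lower in *mtm* livers than in WT livers (log2 fold change -1.89 ± 0.48, edgeR adjusted p = 0.0107), a call lost without WT replicate 2 (adjusted p = 0.0583). Against WT, EtOH livers did not pass (log2 fold change -0.96, interval -2.04 to 0.12, edgeR adjusted p = 0.309).

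*aldh1a2* encodes the retinaldehyde dehydrogenase that makes retinoic acid in the embryo. It was at 1.99 to 8.27 CPM in *mtm* livers with a median of 5.12 CPM. It was at 9.60, 9.10, 10.4 and 9.06 CPM in EtOH livers, 4.83, 3.23, 5.52 and 5.70 CPM in overfed livers and 10.01, 3.41, 3.16 and 5.19 CPM in WT livers. The 4 EtOH libraries were close together and above every *mtm* and overfed library, but WT replicate 1 reached the same level. Against WT the log2 fold change was 0.07 in *mtm* livers (interval -0.89 to 1.02) and 0.89 in EtOH livers (interval -0.13 to 1.91), and neither passed (edgeR adjusted p = 0.943 and 0.319).

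The last step belongs to the acetyl-CoA synthetases. *acss2* encodes the cytosolic enzyme that activates acetate. It ranged from 17.6 to 25.6 CPM in *mtm* livers with a median of 22 CPM. It was at 13.4, 22.8, 16.9 and 17.97 CPM in EtOH livers, 33.4, 24.6, 31.1 and 24.3 CPM in overfed livers and 29.4, 45.9, 23.9 and 19.0 CPM in WT livers. Both groups overlapped with WT, with log2 fold changes of -0.46 in *mtm* livers (interval -0.995 to 0.08, edgeR adjusted p = 0.240) and -0.70 in EtOH livers (interval -1.28 to -0.12, edgeR adjusted p = 0.146).

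*acss2l*, named for its similarity to *acss2*, ranged from 0.447 to 2.63 CPM in *mtm* livers with a median of 0.661 CPM. It was at 3.72, 3.9, 3.69 and 5.34 CPM in EtOH livers, 57.1, 50.6, 46.0 and 92.6 CPM in overfed livers and 35.5, 32.6, 25.9 and 16.4 CPM in WT livers. No group overlapped with any other, and the order was *mtm*, EtOH, WT, overfed going upwards. On average the level was 24.8-fold lower in *mtm* livers than in WT livers (log2 fold change -4.79 ± 0.40, edgeR adjusted p = 1.34e-06). It was 6.63-fold lower in EtOH livers than in WT livers (log2 fold change -2.74 ± 0.42, edgeR adjusted p = 0.000747). In overfed livers it was 2.23-fold higher than in WT livers in the mean, and the log2 fold change of 1.12 ± 0.40 did not pass over all genes (edgeR adjusted p = 0.9996, unadjusted p = 0.0122).

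The counts of genes that moved were read against those over all 11489 genes tested with edgeR. Beside the 8.59% of all genes that were called lower in *mtm* livers than in WT livers, 6.58% had no *mtm* library as high as the lowest WT library, and this held for 8 of the 10. The 10 had a median log2 fold change of -1.90, and all genes had one of 0.01. In EtOH livers 7.63% of all genes and 5 of the 10 had every library below the WT range, so that *adh5* and *cyp2y3* were separate from WT without passing the test. The median log2 fold change against WT was -1.07 for the 10 and -0.03 for all genes. In overfed livers 4.29% of all genes had an unadjusted p under 0.05 in the edgeR test, and of the 10 only *acss2l* did. It was also the one gene of the 10 with every overfed library above the WT range, against 2.37% of all genes. DESeq2 called 28 genes in overfed livers and none of the 10, of which 1 had no adjusted p in that test. The comparisons with WT use the same WT libraries and are not independent of each other. The *mtm* count against WT was 8 without *mtm* replicate 1, 8 with the first submission alone and 7 with the resubmitted libraries alone. With same-numbered *mtm* libraries summed it was 8. Genes called in either direction in these fits, in the same order, were 2435 of 11650, 1639 of 11935, 2033 of 11912 and 2272 of 12237.

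**Figure D2:**
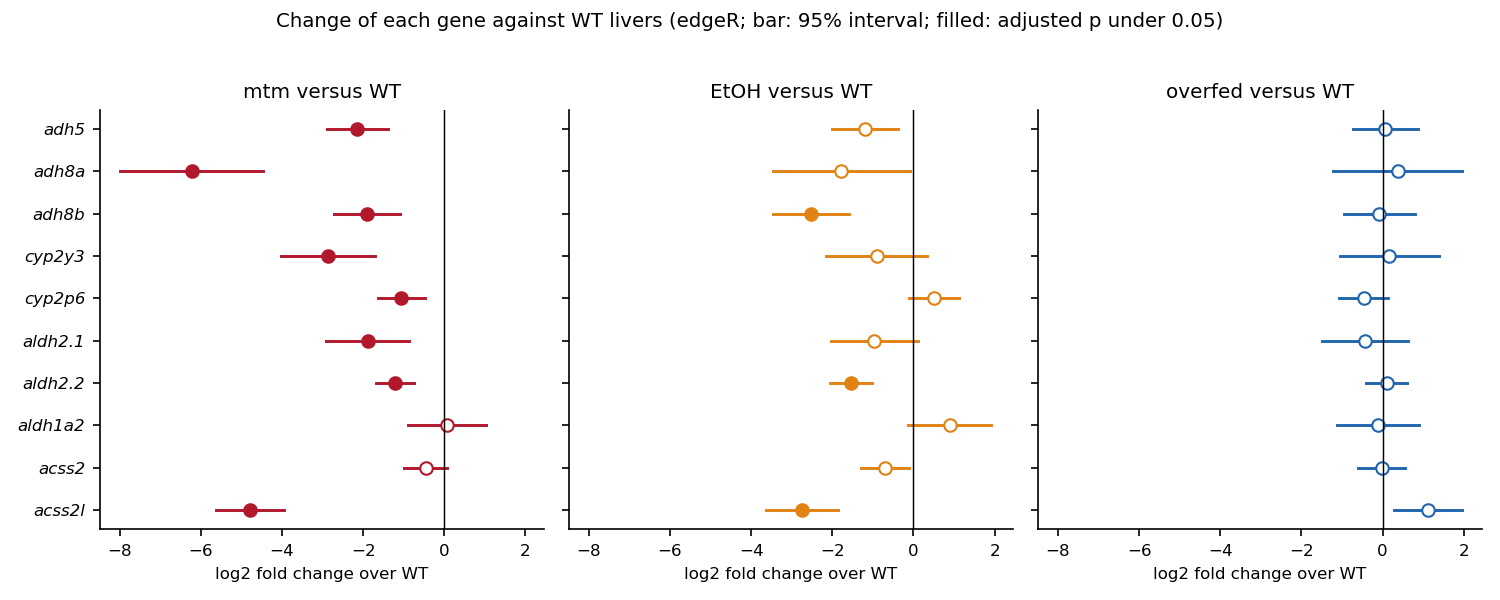
Log2 fold change of each gene over WT with its 95% interval (edgeR) in *mtm*, EtOH and overfed livers, with filled points at an adjusted p under 0.05. In *mtm* livers 8 points are filled and all lie left of 0, with *adh8a* at -6.23 and *acss2l* at -4.79. In EtOH livers 3 are filled, and in overfed livers none.

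In these comparisons the marker levels of several cell types differed too. For the marker counts below, 8.59% of all genes were called lower and 10.1% higher in *mtm* livers. The shares in EtOH livers were 2.7% lower and 4.66% higher. Of the 7 hepatocyte markers tested, 3 (*serpina1*, *fetub* and *apoa2*) were lower in *mtm* livers than in WT livers and 0 were called in EtOH livers, with median log2 fold changes of -0.56 and -0.38. Macrophage markers (5 measured) summed to 74.1 to 220 CPM in *mtm* livers, 12.1 to 33.5 CPM in EtOH livers and 1.22 to 7.67 CPM in WT livers. Neutrophil markers (4 measured) summed to 128 to 263 CPM in *mtm* livers, 23.0 to 49.96 CPM in EtOH livers and 5.82 to 23.9 CPM in WT livers. Bile duct markers (7 measured) summed to 2385 to 5573 CPM in *mtm* livers, 3044 to 4938 CPM in EtOH livers and 1185 to 3078 CPM in WT livers. Of the 6 tested, 4 were higher in *mtm* livers and 2 in EtOH livers. Endothelial markers (7 tested) were higher for 2 in *mtm* livers and for 1 in EtOH livers. Their sums overlapped, at 252 to 455 CPM in *mtm*, 312 to 688 CPM in EtOH and 126 to 678 CPM in WT livers. That overlap came from WT replicate 4 alone, as the other WT libraries were at or below 195 CPM. For bile duct markers too, WT replicate 4 was the highest WT library, with the others at or below 1663 CPM. Exocrine pancreas markers (10 tested, 0 called in either) summed to 206 to 21479, 2805 to 32217 and 1292 to 73797 CPM in *mtm*, EtOH and WT livers. WT replicate 4 held the highest of these sums, and the other WT libraries were at or below 13266.5 CPM. Skeletal muscle markers (7 tested) summed to 11.6 to 1070, 311 to 4373 and 58.6 to 304 CPM in the same order of groups. Of these, 0 were called in *mtm* livers and 1 was higher in EtOH livers. Enterocyte markers (7 measured) summed to 156 to 1034 CPM in *mtm* livers, 1154 to 1603 CPM in EtOH livers and 3662 to 6214 CPM in WT livers. No enterocyte, macrophage or neutrophil marker was at 0 throughout a group, and 1 bile duct marker was at 0 in every library. The enterocyte sum is mostly *apoa4b.1*, which averaged 348 CPM in *mtm* livers, 1213 CPM in EtOH livers and 4559 CPM in WT livers. Of the 5 tested, *apoa4b.1* and *fabp2* were lower in *mtm* livers and *apoa4b.1* in EtOH livers, while *vil1*, *cdx1b* and *anpepb* passed no test in either. The part of these cells in the lower levels of the 10 genes was not tested.

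The direct comparison of *mtm* with EtOH livers asked which of the 10 genes differed between the mutant and the ethanol model. It called 4 genes lower in *mtm* livers, against 4.2% of all genes called lower. *adh8a* had a log2 fold change of -4.45 ± 0.79 (edgeR adjusted p = 0.00483), *acss2l* of -2.05 ± 0.40 (0.00718), *cyp2p6* of -1.56 ± 0.26 (0.00367) and *cyp2y3* of -1.96 ± 0.56 (0.0440). For the first 3 no *mtm* library reached the lowest EtOH library, whereas for *cyp2y3* the groups overlapped, and its call held in only 10 of 19 alternative settings. *aldh2.1* and *aldh1a2* were separate in the same way without passing. Such separation thus held for 5 of the 10, against 4.65% of all genes. For *adh8a* it was narrow, at 1.91 CPM in *mtm* replicate R1 (24 counts) against 1.95 CPM in EtOH replicate 2 (21 counts). With only these 2 groups in the fit, none of the 4 passed (edgeR adjusted p between 0.0519 and 0.260), and 47 genes in all were called. In turn *adh8b*, *aldh2.2* and *acss2* had slightly higher means in *mtm* than in EtOH livers, and none of the 3 differences passed.

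EtOH and overfed livers share the WT genotype, and their comparison uses no WT library. Of all genes, 13.4% passed in either direction, with 5.09% lower and 8.26% higher in EtOH livers. Of the 10, 5 passed, with 4 lower and 1 higher. *acss2l* was 14.8-fold lower in EtOH livers than in overfed livers (log2 fold change -3.86 ± 0.44, edgeR adjusted p = 3.4e-05). *adh8b* (-2.44, adjusted p = 0.00167), *aldh2.2* (-1.64, adjusted p = 0.000393) and *adh5* (-1.26, adjusted p = 0.0397) were also lower by the same test. *cyp2p6* was the one gene called higher in EtOH livers (log2 fold change 0.97 ± 0.29, edgeR adjusted p = 0.0338). The calls of *adh5* and *cyp2p6* lay near the threshold and held in 6 and 7 of 14 alternative settings.

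The division of counts between related genes is not touched by library scaling, but for similar copies it rests on the estimation of counts. It was compared as the share of one gene in the summed counts of a pair, with exact two-sided permutation tests on the log2 ratio and adjustment over 15 tests. A share depends on transcript lengths, so it is compared between groups only. *acss2l* made up a median of 3.10% of *acss2l* plus *acss2* in *mtm* livers (1.93% to 10.96%), 19.8% in EtOH livers (14.6% to 22.9%), 65.2% in overfed livers (59.7% to 79.2%) and 49.2% in WT livers (41.5% to 54.7%). No group overlapped with another in any of the 5 comparisons. The exact permutation p was 0.00952 for *mtm* against WT and against EtOH (adjusted 0.0286), with the 6 *mtm* libraries taken as separate pools. With same-numbered *mtm* libraries summed, the groups still did not overlap, but 3 against 4 cannot go below an exact permutation p of 0.0571, the value found for both. The p was 0.0286, the smallest that 4 against 4 libraries allow, for EtOH against WT, overfed against WT and EtOH against overfed (adjusted 0.0536).

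*adh8a* made up a median of 1.58% of *adh8a* plus *adh8b* in *mtm* livers (0% to 4.84%), 35.7% in EtOH livers (7.34% to 41.0%), 31.0% in overfed livers (6.81% to 31.5%) and 19.0% in WT livers (10.9% to 23.7%). The *mtm* share was thus below that of WT and of EtOH livers in every library (exact permutation p = 0.00952 each, adjusted 0.0286, and 0.0571 each with same-numbered *mtm* libraries summed). In EtOH livers 3 of 4 shares were above the highest WT share and 1 was below the lowest, and the test did not pass (exact permutation p = 0.343). *aldh2.1* made up a median of 7.63% of both *aldh2* genes in *mtm* livers, 15.7% in EtOH livers, 6.19% in overfed livers and 11.9% in WT livers. Of its 5 comparisons, only *mtm* against EtOH passed (exact permutation p = 0.00952, adjusted 0.0286, and 0.0571 with the sums).

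**Figure D3:**
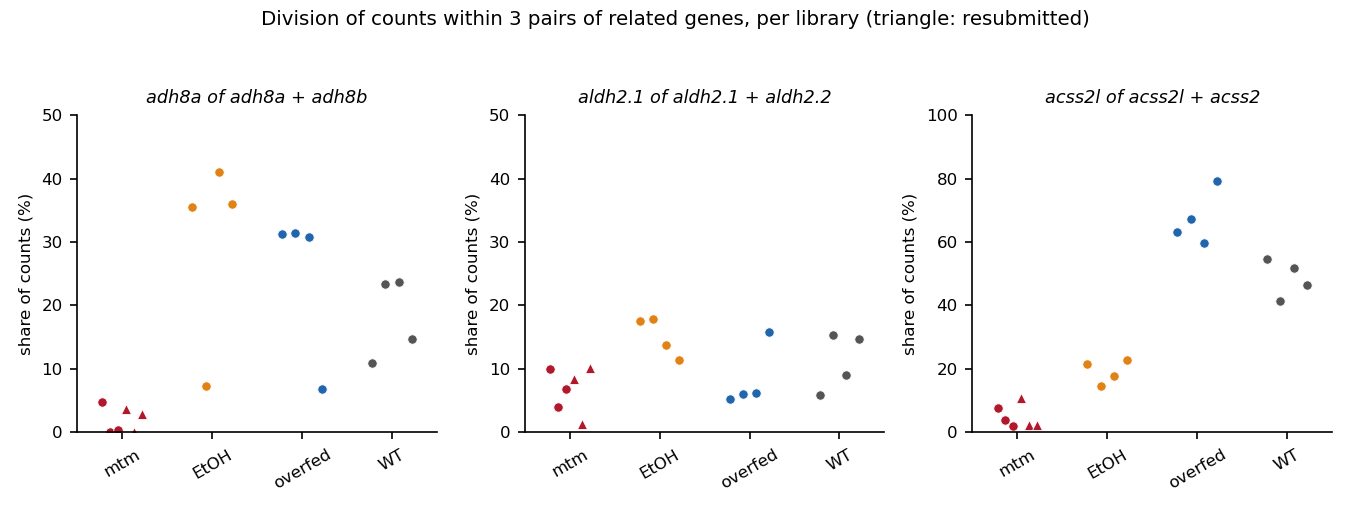
Share of *adh8a*, *aldh2.1* and *acss2l* in the summed counts of their pair (percent) in every library, by group, with resubmitted *mtm* libraries as triangles. The *acss2l* shares form 4 separate bands, from at most 10.96% in *mtm* livers to at least 59.7% in overfed livers, while the *aldh2.1* shares overlap in all comparisons but *mtm* with EtOH.

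Other genes of the same families and of the steps around them were read from lists. For the list counts that follow, 8.59% of all genes were lower and 10.1% higher in *mtm* livers than in WT livers. In EtOH livers 2.7% of all genes were lower and 4.66% higher. Of 13 other aldehyde dehydrogenases tested, 9 were lower and 0 higher in *mtm* livers than in WT livers (median log2 fold change -1.16). In EtOH livers 2 were lower and 1 was higher, and both lower calls lay near the threshold. The falls in *mtm* livers included *aldh9a1a.1*, which acts on aminoaldehydes (log2 fold change -2.87, edgeR adjusted p = 8.17e-05), and *aldh3a2a*, a fatty aldehyde dehydrogenase (-1.27, 0.00126). The gene that rose in EtOH livers was *aldh8a1*, which in mammals takes part in tryptophan breakdown. It averaged 223 ± 78.9 CPM in EtOH livers and 51.6 ± 13.9 CPM in WT livers (SD, n = 4 each), with a log2 fold change of 2.1 and an edgeR adjusted p of 0.00132.

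Of 11 other alcohol dehydrogenases and carbonyl reductases, 8 were lower in *mtm* livers (median -1.55) and 3 in EtOH livers (median -1.08), and 0 were higher in either. The shares of all genes that were lower are 8.59% and 2.7%. *sord*, sorbitol dehydrogenase of the polyol pathway, fell in both, with log2 fold changes of -2.63 in *mtm* livers (edgeR adjusted p = 3.38e-05) and -2.72 in EtOH livers (0.000329). *akr1a1a*, an aldehyde reductase, averaged 1.93 ± 2.51 CPM in *mtm* livers (SD, n = 6), 5.54 ± 4.84 CPM in EtOH livers and 83.0 ± 36.7 CPM in WT livers (SD, n = 4 each), and was called lower in both, in EtOH livers under 10 of 13 alternative settings.

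Among 23 other *cyp2* genes, 10 were lower and 2 higher in *mtm* livers, and 4 were lower and 0 higher in EtOH livers. The share that rose in *mtm* livers is near the 10.1% over all genes. *cyp2x9* had the smallest adjusted p of the list in both comparisons, with log2 fold changes of -5.29 in *mtm* livers (edgeR adjusted p = 1.21e-05) and -4.46 in EtOH livers (0.000512). *cyp2k16* and *cyp2k8* were the 2 that rose in *mtm* livers, named here after their values were seen (log2 fold changes 1.63 and 1.84).

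A list of 9 genes held those of microsomal electron transfer, the *cyp3* family, *ephx1* and catalase. In *mtm* livers 3 were lower (*cat*, *ephx1* and *cyb5a*) and 0 higher. In EtOH livers 2 were lower (*cat* and *ephx1*) and 1 was higher (*cyp3a65*). Of the electron transfer genes, only *cyb5a* in *mtm* livers was thus called. *cat*, whose product catalase can oxidise ethanol with hydrogen peroxide, averaged 143 ± 82.6 CPM in *mtm* livers (SD, n = 6), 264 ± 54.6 CPM in EtOH livers and 985 ± 182 CPM in WT livers (SD, n = 4 each). Its log2 fold change was -2.73 in *mtm* livers (edgeR adjusted p = 2.67e-05) and -1.90 in EtOH livers (0.0029). *cyp3a65*, a cytochrome P450 of the CYP3A family, was higher in EtOH livers (log2 fold change 0.97, edgeR adjusted p = 0.0448), a call that held in only 4 of 14 alternative settings.

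Of 10 further genes that make or use acetyl-CoA, 1 was higher and 4 were lower in each of both groups against WT. The share that rose in *mtm* livers is near the 10.1% over all genes, and in EtOH livers 4.66% of all genes rose. Lower were 8.59% of all genes in *mtm* livers and 2.7% in EtOH livers. The gene that rose was *acss1*, the mitochondrial acetyl-CoA synthetase, the opposite direction to *acss2l*. It averaged 50.1 ± 29.8 CPM in *mtm* livers (SD, n = 6), 77.0 ± 68.1 CPM in EtOH livers and 12.5 ± 5.83 CPM in WT livers (SD, n = 4 each). Its lowest *mtm* value of 21.3 CPM and its lowest EtOH value of 29.8 CPM were above its highest WT value of 18.5 CPM. The log2 fold change was 2.35 ± 0.59 in *mtm* livers (edgeR adjusted p = 0.00975) and 2.49 ± 0.61 in EtOH livers (0.0183), and the calls held in 18 of 19 and 10 of 14 alternative settings. The 4 that fell were in both groups *slc25a20*, *crata*, *mlycd* and *acacb*, which serve the transport of acyl groups and the turnover of malonyl-CoA. The call of *mlycd* in EtOH livers held in only 3 of 13 alternative settings.

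NADH from the cytosolic alcohol dehydrogenase step is passed on to mitochondria by shuttles. Of 12 shuttle and lactate dehydrogenase genes, 3 were higher and 2 lower in *mtm* livers, and 3 were higher and 0 lower in EtOH livers. Over all genes, 10.1% were higher and 8.59% lower in *mtm* livers, and 4.66% were higher and 2.7% lower in EtOH livers. *got1*, the cytosolic aspartate aminotransferase of the malate-aspartate shuttle, rose in both, to 503 ± 132 CPM in *mtm* livers (SD, n = 6) and 648 ± 189 CPM in EtOH livers, against 169 ± 66.7 CPM in WT livers (SD, n = 4 each). Its log2 fold changes were 1.73 (edgeR adjusted p = 0.000299) and 1.96 (0.0005). *gpd1b*, of the glycerol phosphate shuttle, was lower in *mtm* livers (log2 fold change -2.27, edgeR adjusted p = 0.000153). In overfed livers 0 genes of these lists were called against WT.

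**Figure D4:**
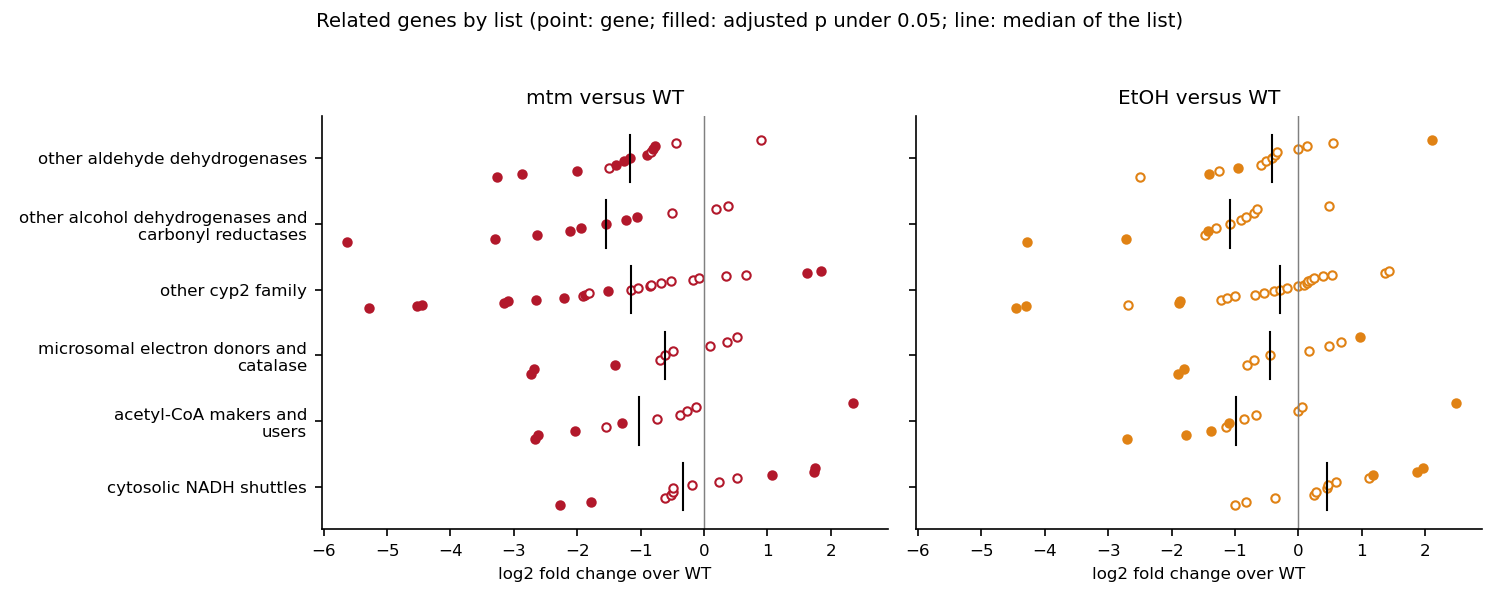
Log2 fold change over WT of each tested gene of 6 lists in *mtm* and EtOH livers (point, 1 gene; filled, edgeR adjusted p under 0.05; line, median of the list). The medians of the other aldehyde dehydrogenases are -1.16 in *mtm* and -0.41 in EtOH livers, and the single filled point to the right among acetyl-CoA genes is *acss1* in both panels.

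The genes whose levels followed those of the 10 most closely over the 18 libraries were found by Pearson correlation of log2 CPM, as a description. The libraries come from 4 groups, so a correlation partly restates the differences between groups. For *acss2l* they were *hmgcra* (r = 0.977), *dbi* (0.960) and *cyp51* (0.959). *hmgcra* encodes the rate-limiting enzyme of cholesterol synthesis and *cyp51* a later step, while *dbi* encodes an acyl-CoA binding protein. With the group means removed, the r of *acss2l* with *hmgcra* was 0.578, with *dbi* 0.299 and with *cyp51* 0.133. *acss2* had an r of 0.425 with *hmgcra*.

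Sterol synthesis genes, targets of the transcription factor SREBP2, moved widely in the same comparisons. Of 14 tested, 13 were lower in *mtm* livers (median log2 fold change -5.55) and 13 in EtOH livers (median -4.52), each against WT, while 0 were called in overfed livers (median 1.06). Of all genes, 8.59% were lower in *mtm* livers and 2.7% in EtOH livers. *hmgcra* averaged 8.47 ± 5.52 CPM in *mtm* livers (SD, n = 6), 97.4 ± 48.0 CPM in EtOH livers, 2607 ± 689 CPM in overfed livers and 1349 ± 394 CPM in WT livers (SD, n = 4 each). The order of its group means was the same as that of *acss2l*. *hmgcra* was the gene most correlated with *acss2l* over these same libraries, so the shared order is no separate result. The group means of *adh5*, *adh8a* and *cyp2y3* had that order too.

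**Figure D5:**
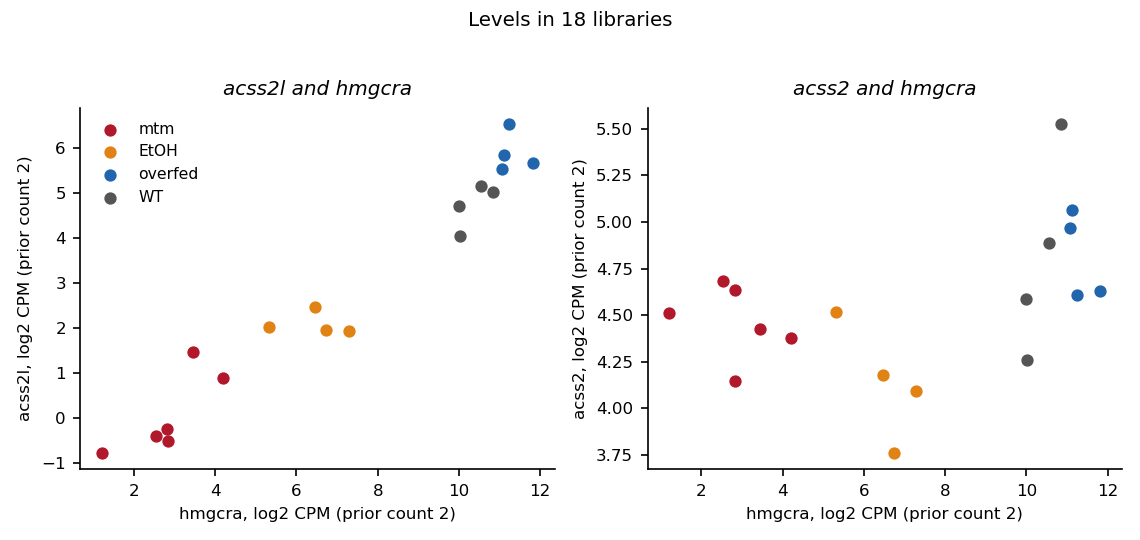
Levels of *acss2l* (left) and *acss2* (right) against *hmgcra* in the 18 libraries, all as log2 CPM with a prior count of 2, colored by group. The points of *acss2l* climb with *hmgcra* from *mtm* over EtOH to WT and overfed libraries (r = 0.977), and those of *acss2* spread with no such line (r = 0.425).

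The closest genes of the other members varied, and that of *aldh2.2* was again a sterol synthesis gene. *adh5* was closest to *zgc:77439* (r = 0.979), *suclg2*, a subunit of succinyl-CoA ligase (0.979), and *ahsg2* (0.976), with an r of 0.897 for *suclg2* within groups. *cyp2y3* was closest to *gatm*, which encodes the first enzyme of creatine synthesis (r = 0.971, 0.939 within groups). *aldh2.2* was closest to *msmo1*, of the same sterol synthesis list as *hmgcra* (r = 0.926, 0.661 within groups). *adh8b* was closest to *ebpl* (r = 0.907, 0.604 within groups). *cyp2p6* was closest to *faxdc2* (r = 0.932), followed by *cyp2aa12* (0.927). *aldh1a2* had no gene above an r of 0.8. Between the 10 genes themselves, *adh5* and *cyp2y3* had the highest r (0.896, 0.609 within groups), followed by *adh8b* and *aldh2.2* (0.883, 0.385 within groups). *adh8b* and *cyp2p6* had an r of -0.05.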

How the data were processed

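Bulk RNA of 40 pooled larval livers per library was sequenced in 18 libraries (6 *mtm*, 4 EtOH, 4 overfed, 4 WT), made with SMART-Seq v4 and Nextera XT. The authors trimmed the reads with Trim Galore 0.6.6, estimated counts with Salmon on GRCz11 transcripts, and deposited estimated counts per gene, by gene name, as whole numbers without normalization. They tested with DESeq2 1.24.0. The depth of 8919274 to 20582311 counts per library limits low genes, since *adh8a* and *acss2l* had few reads in *mtm*.

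A gene was tested if it reached 5 reads in 0.8 or more of all 18 libraries, which left 11489 of 19793. Libraries were scaled by TMM and tested with edgeR 4.0.16 (R 4.3.3, glmQLFit and glmQLFTest, Benjamini-Hochberg adjustment, adjusted p under 0.05) in 1 fit of all 4 groups with the replicate number as covariate, as in the study's design. The fit was tested on simulated counts. Settings varied were DESeq2 1.42.0, its size factors, 2 other filters, no replicate covariate, only the compared groups, a limit on the fold change, each *mtm* submission, sums of *mtm* libraries with the same number, and fits that leave out 1 library. For the related lists and the pairs these settings were added after the data were seen. Pair shares were tested in Python 3.11.15 with scipy 1.17.1.

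The 10 genes, the gene lists and the tests were chosen with earlier results of these data known. Genes named are the 10, *mtm1*, for each of the 10 up to 3 most correlated genes (log2 CPM, prior count 2), and for each list up to 3 with the smallest adjusted p in *mtm* or EtOH against WT. *cyp2k8* and *cyp2k16*, and *crata*, *mlycd*, *slc25a20* and *acacb* together, were named after their values were seen. Dates stood in place of 15 gene names, which took up to 0.0454% of a library. The *abcb11b* experiment was not used here.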

Additional observations from a re-analysis of the deposited data

Results flagged for a closer look

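Among 40 sets of values, 1 per gene and group, 2 held a library far from the others of its group. Chance marks about 1 in 20 such sets, which is 2 of 40. *aldh2.2* was at 229 CPM in overfed replicate 3, while the other 3 overfed libraries lay between 192 and 194 CPM. *acss2l* was at 5.34 CPM in EtOH replicate 4, and the other 3 EtOH libraries lay between 3.69 and 3.9 CPM, all of them below the lowest WT library. The calls of *aldh2.2* and *acss2l* given above held with any 1 library left out.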

How the results depend on the processing

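Of 785 values of single genes of the 10 under alternative settings, 727 kept their direction and their side of the threshold, 31 fell below it, 8 passed it and 19 changed sign. The sign changed only for values that passed no test under any setting run. The number of the 10 genes called was 8 for *mtm* against WT. It was 5 with at least 10 reads in every library (7 of the 10 tested) and 4 with an absolute log2 fold change above 2. In either direction, 2147 of all 11489 genes were called. These were 2079 of 7934 genes under the read limit and 863 of 11489 under the fold limit. For *mtm* against EtOH the number of the 10 was 4, and 2 under the read limit, 2 under the fold limit and 0 with only the 2 groups fitted. Of all genes, 812 of 11489, 973 of 7934, 245 of 11489 and 47 of 11617 were called in that order. For EtOH against overfed livers the number of the 10 was 5, and 7 with DESeq2, 4 without the low-count filter and 2 under the fold limit. DESeq2 added *adh8a* (DESeq2 adjusted p = 0.0171) and *acss2* (0.0484). Of all genes, 1534 of 11489, 2269 of 11489, 1459 of 19007 and 687 of 11489 were called in that order. With each library left out, the number of the 10 ranged from 7 to 8 (*mtm* against WT), 3 to 3 (EtOH against WT) and 0 to 0 (overfed against WT). It ranged from 3 to 5 (*mtm* against EtOH) and 3 to 4 (EtOH against overfed). Calls over all genes then ranged from 1441 to 2435, 428 to 811, 0 to 3, 330 to 1300 and 933 to 1485, in the same order. The genes tested in those fits numbered 11518 to 11744. The cause of these shifts was not tested, beyond the fewer genes under the read limit.

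Without the replicate block the counts were 8, 4, 0, 4 and 5 in the same order of comparisons. Of all 11489 genes, 2256, 892, 0, 915 and 1564 were then called in either direction. *aldh1a2* in *mtm* against WT was at -0.034. The replicate number is in the edgeR fit as a block because the study's design has it, so that fit does group same-numbered libraries. Not every same-numbered pair had a correlation above 0.1. Of 33 such pairs, 7 did, 3 of them among the 4 pairs of overfed with WT libraries, and the median was -0.014, against 0.0022 between different numbers. As a hint from the data, 10 of 18 libraries had their best match in another group at their own number, a count whose chance level was not computed.

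*aldh1a2* in *mtm* against WT was at -0.041 with the resubmitted libraries alone and ranged from -0.25 to 0.53 with 1 library left out. *acss2* in overfed livers against WT was at 0.0087 without the low-count filter and at 0.0048 with only the 2 groups fitted. With 1 library left out, log2 fold changes in overfed livers ranged from -0.17 to 0.22 for *acss2*, -0.050 to 0.23 for *adh5*, -0.49 to 1.16 for *adh8a*, -0.28 to 0.046 for *adh8b*, -0.090 to 0.30 for *cyp2y3*, -0.0068 to 0.20 for *aldh2.2* and -0.33 to 0.29 for *aldh1a2*. *got2b* in *mtm* against WT ranged from -0.32 to 0.023. The log2 ratio of *adh8a* to *adh8b* in EtOH against overfed livers ranged from -0.32 to 1.06, and no other pair changed direction. Of the counts of genes called per list, 248 stayed within 1.5 times and 32 did not. Depth limits *adh8a* and *acss2l* in *mtm* livers to their direction and rough size.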

Other observations

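Retinoid metabolism shares its dehydrogenase families with ethanol metabolism, and *aldh1a2* belongs to both. Of 15 other retinoid genes tested, 1 was higher and 3 were lower in *mtm* livers than in WT livers, 1 was higher and 1 lower in EtOH livers, and 0 were called in overfed livers. Over all genes, 10.1% were higher and 8.59% lower in *mtm* livers and 4.66% higher and 2.7% lower in EtOH livers. *cyp26b1*, which encodes an enzyme that breaks down retinoic acid, averaged 73.2 ± 20.3 CPM in *mtm* livers (SD, n = 6), 94.7 ± 50.7 CPM in EtOH livers and 11.6 ± 13.02 CPM in WT livers (SD, n = 4 each). Its log2 fold change against WT was 3.66 in *mtm* livers (edgeR adjusted p = 7.15e-05) and 3.52 in EtOH livers (0.000394). All *mtm* libraries were above the highest WT library, while the lowest EtOH library was at 24.9 CPM and the highest WT library at 31.1 CPM. *rbp2a*, which encodes a cellular retinol binding protein, averaged 14.5 ± 8.35 CPM in *mtm* livers (SD, n = 6), 71.5 ± 16.6 CPM in EtOH livers and 451 ± 138 CPM in WT livers (SD, n = 4 each). Its log2 fold change against WT was -5.06 in *mtm* livers (edgeR adjusted p = 4.4e-07) and -2.67 in EtOH livers (0.000572). *aldh1a2* itself passed no test in either group.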
